A study of Rattus norvegicus with 6 samples.

Results

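The organic anion and cation transporters of the renal proximal tubule were followed here in the kidney cortex of rats given 1,2-dibromoethane. The group holds 9 genes, chosen by name when earlier results of these data were known: Slc22a6, Slc22a8, Slc22a7, Slc22a2, Slc22a12, Slc22a13, Slc47a1, Slco1a1 and Slco4c1. Every probe of the array whose accession maps to one of these genes was taken, which gave 18 probes for the 9 genes, of 61453 probes analysed and 15645 genes with a probe. The tissue was renal cortex of male Sprague-Dawley rats (Crl:CD(SD), an outbred stock) that were 5 weeks old when purchased. The treatment of 3 rats was 1,2-dibromoethane, a brominated alkane once used as a fumigant, at 75 mg/kg/day for 4 weeks, and the 3 control rats received corn oil for 4 weeks. Each animal gave 1 single-colour array, so that 3 arrays per group limit the precision of every difference.

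Proximal tubule cells clear drugs, toxicants and metabolic waste from blood to urine. Organic anions enter across the basolateral membrane in exchange for dicarboxylates, through the carriers encoded by Slc22a6 (OAT1) and Slc22a8 (OAT3), and organic cations enter through the carrier encoded by Slc22a2 (OCT2). Other members sit in the luminal membrane, where Slc47a1 (MATE1) exports cations in exchange for protons and Slc22a12 (URAT1) exchanges urate with other anions. In rats, Slco1a1 and Slc22a2 are known for higher renal levels in males than in females.

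Levels are given as log2 of the scanner's background-subtracted signal minus the 75th percentile of the same array, so that 0 is the 75th percentile of the array's probes. Levels of different probes are not on a common scale, so they say nothing of which gene is more abundant. Differences are dibromoethane minus control on this log2 scale, with their standard error (SE) from a limma fit over 37274 probes, those whose signal was well above background in all 3 animals of either group. Between 59.2% and 67.8% of probes were well above background on an array. Across probes, arrays of 1 group correlated at r = 0.99 to 0.993 and arrays of different groups at r = 0.988 to 0.992. Probes are not independent replicates. The markers of the labelled tissue were present: all 8 proximal tubule markers were well above background on all 6 arrays, among them Slc34a1, Slc5a2, Lrp2 and Aqp1. The intervals are 95% intervals for 1 probe, without adjustment for the number of probes.

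No transporter probe passed the test. Of the 18 probes 15 could be tested, and 0 of the 15 had an adjusted p under 0.05 in limma, where 10 of all 37274 probes (0.0268%) did. At an unadjusted p under 0.05 in limma there were 4 of the 15, for Slc22a6, Slc22a2 and Slco1a1, against 11.3% of all probes. All 4 were lower in treated rats, against 6.59% of all probes. The direction was mostly downward, with a negative difference in 13 of the 15 probes and a median of -0.25, where 53.2% of all probes tested were negative with a median of -0.01. In 2 of the 15 probes, both of Slc22a6, all treated arrays lay below all control arrays, which was the case in 11.8% of all probes. None lay entirely above the controls, against 7.58% of all probes. Probes of 1 gene measure the same transcripts, so the 15 probes are not independent. In a bulk tissue sample, fewer cells of a type and less RNA per cell cannot be told apart.

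**Figure D1:**
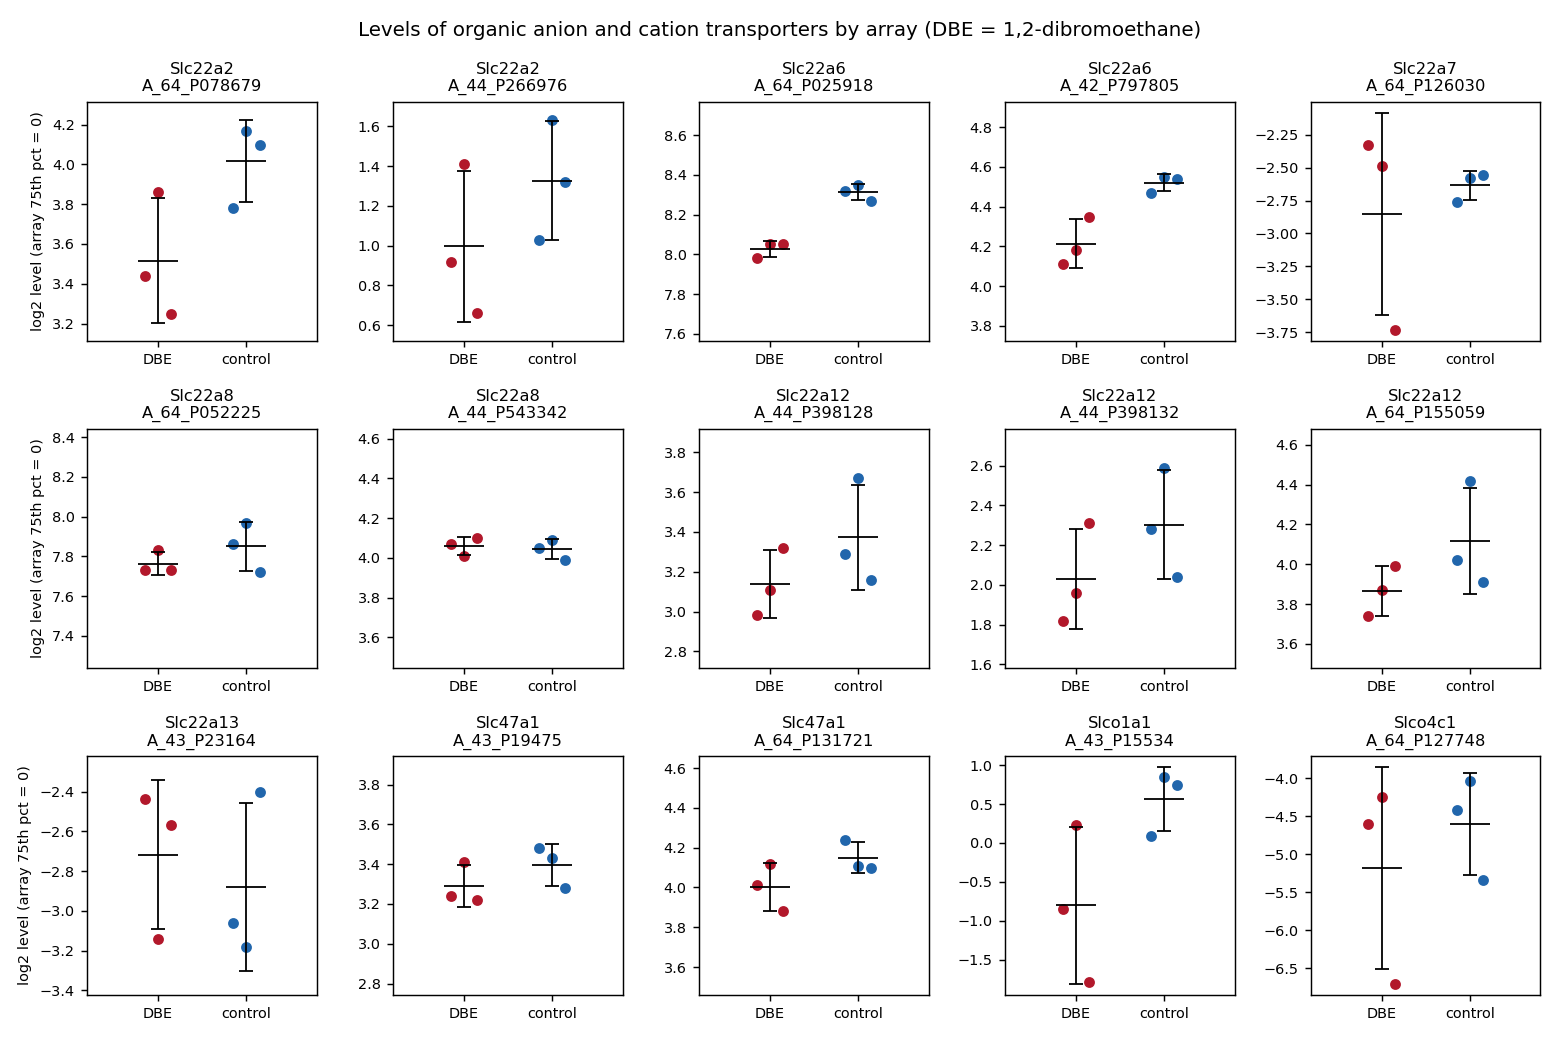
Log2 level of each of the 15 tested transporter probes (vertical axes, 0 being the 75th percentile of the array) in dibromoethane (DBE, red) and control (blue) arrays. Points are single animals in replicate order, with the mean and SD as a bar (n = 3 each). The groups are separate for both Slc22a6 probes and overlap in the other 13.

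The promoters of the members that bear on these results are shown before the values, as 250 bases before the start in a RefSeq promoter table. Of the 9 genes 7 have an entry in that table (assembly GRCr8). Its start is not always the outer end of the annotated gene. The Slc22a8 stretch lies inside the gene's span (chr1:214925506-214945516), as do those of Slc22a12 and Slc22a7 in their genes. The Slco1a1 stretch overlaps its gene, which ends at 176682027. Slco1a1 is shown for the largest difference, Slc22a2 as the other transporter known for male-biased renal levels, and Slc22a8 as the abundant anion transporter next to Slc22a6. They lie at chr4:176681993-176682242 (minus strand), chr1:50711020-50711269 (minus strand) and chr1:214927034-214927283 (plus strand) and are written 5′ to 3′. Capitals mark matches, on either strand, to a core of the HNF1 site (GTTAAT, on the other strand ATTAAC) or a core of the HNF4 site (CAAAGTCCA, on the other strand TGGACTTTG).
Slco1a1: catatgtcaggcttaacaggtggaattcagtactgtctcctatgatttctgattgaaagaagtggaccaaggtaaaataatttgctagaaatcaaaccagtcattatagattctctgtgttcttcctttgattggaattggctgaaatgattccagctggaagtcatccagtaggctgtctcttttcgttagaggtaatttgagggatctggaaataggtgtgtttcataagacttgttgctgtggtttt
Slc22a2: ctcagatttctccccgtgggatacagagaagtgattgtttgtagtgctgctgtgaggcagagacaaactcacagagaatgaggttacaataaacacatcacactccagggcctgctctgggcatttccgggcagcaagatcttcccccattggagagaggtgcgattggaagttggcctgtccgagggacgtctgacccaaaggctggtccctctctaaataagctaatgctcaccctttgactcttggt
Slc22a8: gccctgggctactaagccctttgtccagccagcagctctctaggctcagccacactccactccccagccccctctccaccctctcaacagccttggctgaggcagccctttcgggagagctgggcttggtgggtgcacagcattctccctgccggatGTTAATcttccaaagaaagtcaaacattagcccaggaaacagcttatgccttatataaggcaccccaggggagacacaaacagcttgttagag
Slc22a8 has 1 match to the HNF1 core, and 6.5% of all 33469 promoters of that length hold this core. The HNF4 core, found in 0.3% of promoters, was absent from the 7 members' stretches, and those of Slco1a1, Slc22a2, Slc22a12, Slc22a13, Slc22a7 and Slco4c1 held 0 matches to either motif. A match describes these letters only and is not evidence of binding.

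Slc22a6, the basolateral exchanger that carries para-aminohippurate and many anionic drugs into the cell, was lower in treated rats by a small and even amount. Its brighter probe A_64_P025918 stood at 7.98, 8.05 and 8.05 in the treated rats, against 8.32, 8.35 and 8.27 in the controls. The groups did not overlap, and the 3 animals of each group lay close together. The means were 8.03 ± 0.04 in treated and 8.31 ± 0.04 in control rats (SD, n = 3 each), a difference of -0.28 (SE 0.07, interval -0.45 to -0.12, limma adjusted p = 0.316), or 0.821 times the control level. The other probe A_42_P797805 gave 4.11, 4.18 and 4.35 in treated rats, against 4.47, 4.55 and 4.54 in controls. It too was lower in all 3 treated animals than in any control, with a difference of -0.31 (SE 0.09, limma adjusted p = 0.358). The difference of the brighter probe was -0.28 within slide 1, which holds 1 treated and 2 control arrays, and -0.29 within slide 2, which holds 1 of each. For the other probe these values were -0.33 and -0.44. With quantile normalization the brighter probe gave -0.19.

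Slc22a8 is the neighbour of Slc22a6 in the GRCr8 gene order, with 0 annotated genes between them, and encodes the second basolateral anion exchanger of these cells. Its brighter probe A_64_P052225 stood at 7.73, 7.83 and 7.73 in treated rats, against 7.86, 7.97 and 7.72 in controls, so that the groups overlapped. The difference was -0.09 (SE 0.09, interval -0.30 to 0.13, limma adjusted p = 0.737), which spans 0.811 to 1.095 times the control level. Its other probe A_44_P543342 gave 4.07, 4.01 and 4.10 in treated rats, against 4.05, 4.09 and 3.99 in controls. Its difference was 0.02 (SE 0.07, interval -0.15 to 0.19, limma adjusted p = 0.935). The sign of the Slc22a8 difference turned with the scaling, to 0.03 for the brighter probe with quantile normalization and to -0.02 for the other with median centring.

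The difference between groups was also taken for the ratio of the pair of neighbours on the same array; the ratio itself has no scale, and only its difference between groups can be read. The log2 ratio of the brighter Slc22a6 probe to the brighter Slc22a8 probe was 0.26, 0.22 and 0.32 in treated rats, against 0.46, 0.38 and 0.56 in controls. Treated animals all lay below control animals, and the ratio differed by -0.20 (exact permutation test, two-sided, p = 0.1, the smallest that 3 against 3 allows). Of the 4 pairings of an Slc22a6 with an Slc22a8 probe, the other 3 gave -0.30, -0.22 and -0.33, with exact permutation p = 0.1, 0.3 and 0.1. This pair was chosen after the values were seen.

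Slc22a7 encodes the organic anion transporter OAT2, and its 1 probe stood at -2.33, -2.49 and -3.73 in treated rats, against -2.76, -2.58 and -2.56 in controls. Treated replicate 3 was far below the other 5 arrays, while treated replicates 1 and 2 were above all controls. The difference was -0.22 (SE 0.37, interval -1.11 to 0.68, limma adjusted p = 0.844), and it was 0.22 without dibromoethane replicate 3 and 0.20 in a fit with slide terms. Within slide 1 it was 0.18 and within slide 2 0.23.

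Slco4c1 encodes a basolateral carrier of cardiac glycosides and thyroid hormone. Its brighter probe A_64_P127748 stood at -4.60, -4.24 and -6.71 in treated rats, against -4.42, -4.03 and -5.34 in controls, and was not well above background in treated replicate 3. The groups overlapped, with a difference of -0.59 (SE 0.70, interval -2.29 to 1.11, limma adjusted p = 0.776), which was 0.17 without dibromoethane replicate 3 and 0.31 in a fit with slide terms. The other probe, A_44_P543048, did not rise well above background in any animal and was not tested.

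Slc22a2, the basolateral entry route of organic cations such as metformin and cisplatin, had lower values in treated rats by its brighter probe. A_64_P078679 stood at 3.44, 3.86 and 3.25 in treated rats, against 3.78, 4.17 and 4.10 in controls. Treated replicate 2 lay above control replicate 1, and the other treated arrays lay below all controls. The difference was -0.50 (SE 0.19, interval -0.95 to -0.05, limma adjusted p = 0.414), or 0.707 times the control level. It was -0.11 within slide 1 and -0.67 within slide 2. The other probe A_44_P266976 stood at 0.92, 1.41 and 0.66 in treated rats, against 1.03, 1.63 and 1.32 in controls. It had the same order of animals within the treated group, and a difference of -0.33 (SE 0.23, limma adjusted p = 0.617), with 0.08 within slide 1 and -0.40 within slide 2.

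Slc47a1, the luminal proton antiporter through which cations leave the cell, differed little. Its brighter probe A_64_P131721 stood at 4.01, 4.12 and 3.88 in treated rats, against 4.24, 4.11 and 4.10 in controls. The groups overlapped, with a difference of -0.15 (SE 0.09, interval -0.37 to 0.07, limma adjusted p = 0.564). The other probe A_43_P19475 gave 3.24, 3.41 and 3.22 in treated rats, against 3.48, 3.43 and 3.28 in controls, and -0.11 (SE 0.09). The interval of the brighter probe runs from 0.774 to 1.051 times the control level.

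Slco1a1, a luminal carrier of steroid conjugates and other large organic anions in the straight part of the proximal tubule, had the largest difference of the 9 genes. Its 1 probe, A_43_P15534, stood at -0.85, 0.23 and -1.79 in treated rats, against 0.09, 0.85 and 0.75 in controls. Treated replicates 1 and 3 lay below all controls, and treated replicate 2 lay between the controls. The means were -0.80 ± 1.01 in treated and 0.56 ± 0.41 in control rats (SD, n = 3 each). The difference of -1.37 (SE 0.51, interval -2.62 to -0.12) corresponds to 0.387 times the control level and did not pass the test (limma adjusted p = 0.417). It was -0.25 within slide 1 and -1.60 within slide 2. A fit with slide terms gave -0.82, and leaving out dibromoethane replicate 3 gave -0.88.

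**Figure D2:**
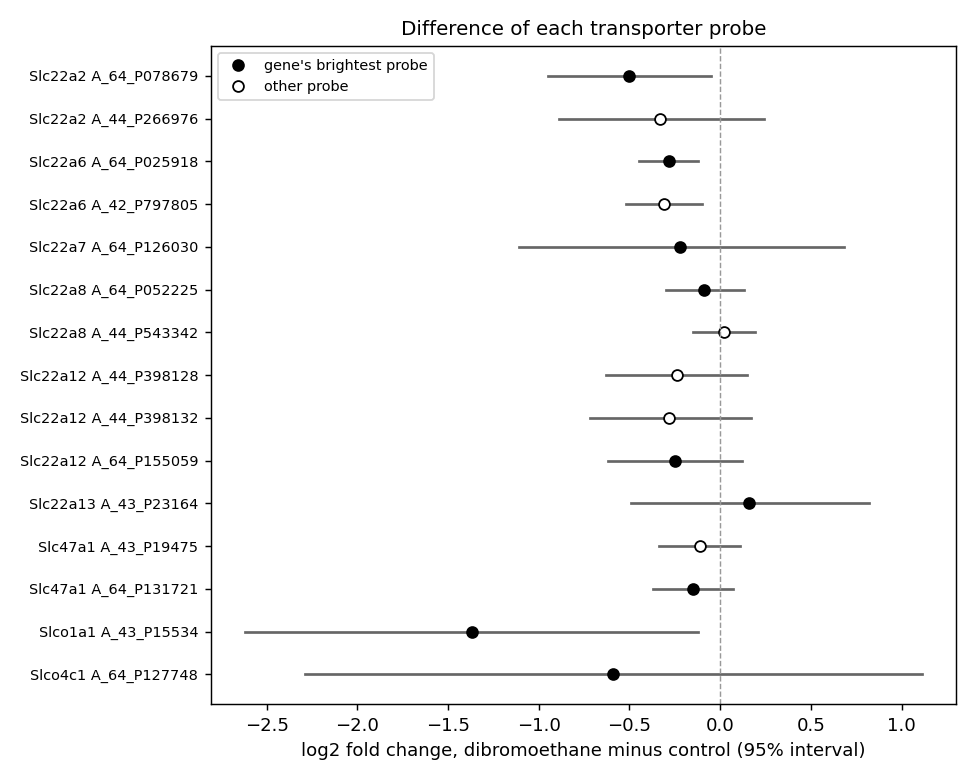
Log2 fold change of each tested transporter probe (horizontal axis, dibromoethane minus control), with its 95% interval as a line; filled points are a gene's brightest probe and open points its other probes. The intervals of both Slc22a6 probes, the brighter Slc22a2 probe and Slco1a1 lie below 0, before adjustment for the number of probes tested.

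The urate and anion exchangers of the luminal membrane showed no separation. The brightest of the 3 Slc22a12 probes, A_64_P155059, stood at 3.74, 3.87 and 3.99 in treated rats, against 4.02, 4.42 and 3.91 in controls. Control replicate 2 was the highest of the 6 arrays on all 3 probes of this gene. The differences of the 3 probes were -0.25, -0.24 and -0.28, with limma adjusted p = 0.567, 0.595 and 0.597. Slc22a13, which in humans encodes an exchanger of nicotinate and urate, had values of -2.44, -3.14 and -2.57 in treated rats, against -3.06, -3.18 and -2.40 in controls, by its brightest probe A_43_P23164. The difference was 0.16 (SE 0.27, interval -0.49 to 0.82, limma adjusted p = 0.841). Its sign turned to -0.03 in a fit with slide terms. Of its other probes, A_64_P007990 was well above background on 2 treated and 1 control arrays, and A_64_P007988 on 1 treated and 0 control arrays; neither was tested.

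Among the treated animals, replicate 3 was the lowest of the 6 arrays for 5 of the 9 genes by the brightest probe: Slc22a2, Slc22a7, Slc47a1, Slco1a1 and Slco4c1. It was the lowest array in 20.1% of all probes tested. Treated replicate 3 was the only array on slide 3, so its animal and its slide cannot be told apart. The relatives Slco1a6 and Slco1a5, which encode further carriers of the same family, had values of -2.63 and -2.31 on that array. Slco1a6 stood at -1.18 and -0.89 in the other treated rats, against -0.68, -0.23 and -0.94 in controls. Slco1a5 stood at -1.38 and -0.85 in the other treated rats, against -1.35, -1.01 and -1.10 in controls. Both were lower in treated replicate 3 than on any other array. Slc7a13, an amino acid transporter that marks the straight proximal tubule, stood at 4.03, 4.76 and 2.74 in treated rats, against 4.72, 5.12 and 4.14 in controls. The other marker of that segment, Slc5a10, stood at 1.90, 2.57 and 1.94 in treated rats, against 2.90, 2.54 and 2.37 in controls. On treated replicate 3, Slc7a13 too was at its lowest, and Slc5a10 was at its second lowest. The summed signal of these 2 segment markers ranged from 3.39 to 5.04 on the log2 scale in treated rats and from 4.51 to 5.35 in controls. All 3 markers of the thick ascending limb, another segment, had negative differences too, with a median of -0.57. Of the 3, 0 passed and 1 had an unadjusted limma p under 0.05, against 11.3% of all probes. Umod, the uromodulin gene, stood at 7.72, 8.36 and 6.94 in treated rats, against 8.23, 8.33 and 8.18 in controls. Slc12a1, the sodium-potassium-chloride cotransporter gene, stood at 4.12, 4.50 and 3.60 in treated rats, against 4.24, 4.23 and 4.57 in controls. Cldn16, a tight junction gene, stood at -1.75, -1.29 and -2.03 in treated rats, against -1.11 to -0.82 in controls. All 3 were at their lowest on treated replicate 3, and for Cldn16 the groups did not overlap (-0.72, SE 0.20, limma adjusted p = 0.355). Treated arrays lay entirely below controls in 11.8% of all probes tested. The summed signal of these 3 markers ranged from 7.08 to 8.45 in treated rats and from 8.30 to 8.41 in controls. The part of segment composition in the transporters' differences was not tested.

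**Figure D3:**
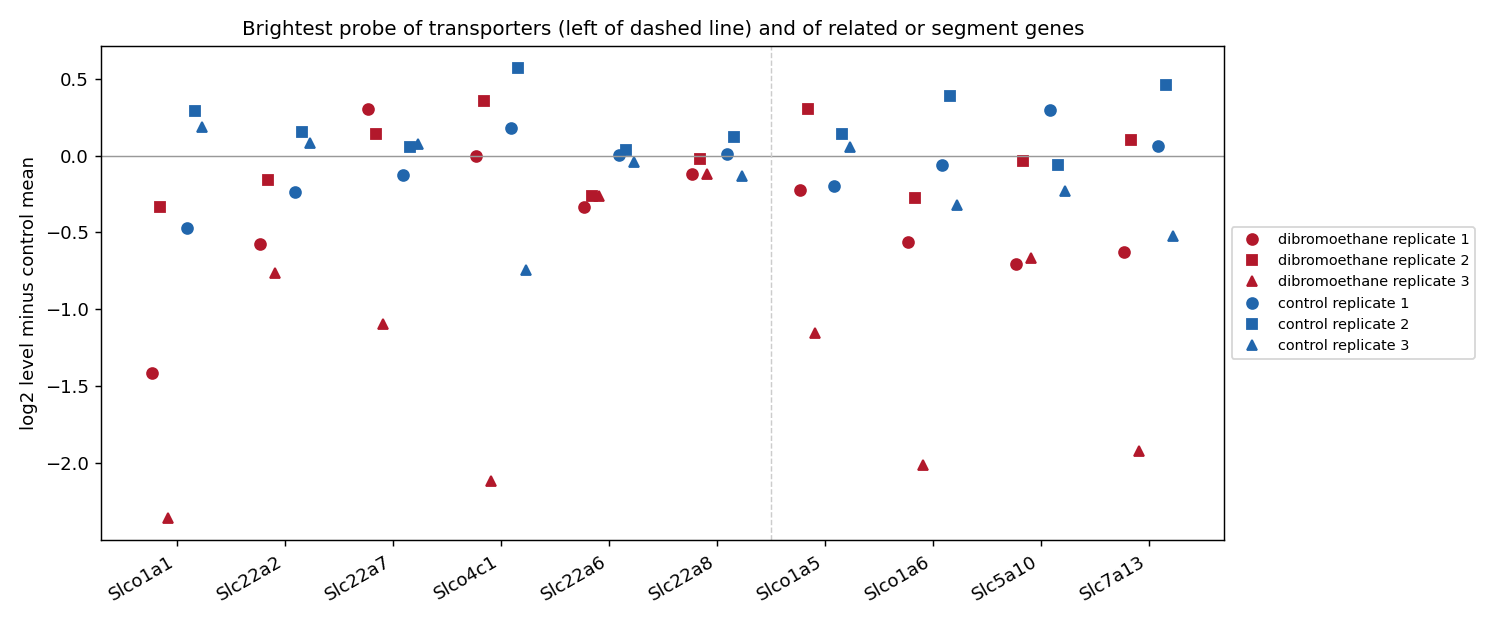
Log2 level of the brightest probe minus the control mean (vertical axis) for 6 of the transporters, left of the dashed line, and for Slco1a5, Slco1a6 and the straight proximal tubule markers Slc5a10 and Slc7a13. Each symbol is 1 array, with dibromoethane arrays in red left of the control arrays in blue; the triangle of dibromoethane replicate 3 is the lowest point for Slco1a1, Slc22a2, Slc22a7, Slco4c1, Slco1a5, Slco1a6 and Slc7a13, and the Slc22a6 values of the groups are separate.

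Some of these carriers are made in liver as well, so hepatocyte markers were read beside them. Of 12 hepatocyte markers 11 were tested, and all 11 had a positive difference, with a median of 1.60. In 4 of the 11 all treated arrays lay above all controls, against 7.58% of all probes tested. In the other 7 the groups overlapped. Of the 11, 0 passed the test and 4 had an unadjusted limma p under 0.05, against 11.3% of all probes. The summed signal of these markers ranged from 4.28 to 5.60 in treated rats and from 3.54 to 4.14 in controls. Cps1, an abundant hepatocyte enzyme, stayed near background in all animals. Slco1a1, which is abundant in liver, had a negative difference beside these. The part of hepatocyte transcripts in the carriers' values was not tested. Proximal tubule markers had a median difference of -0.04, with 5 of 8 negative, 0 passed and 2 with an unadjusted limma p under 0.05, and their summed signal ranged from 9.60 to 9.67 in treated rats and from 9.66 to 9.70 in controls. In 3 of the 8 all treated values lay below all control values, against 11.8% of all probes tested. The 3 were the lactate carrier gene Slc5a12, with a difference of -0.51 (SE 0.12, limma adjusted p = 0.307), the water channel gene Aqp1 with -0.28 (SE 0.10, limma adjusted p = 0.399) and the phosphate carrier gene Slc34a1 with -0.08 (SE 0.06, limma adjusted p = 0.673). The groups overlapped for Lrp2 (-0.09) and Slc5a2 (0.00), and for the 3 with a positive difference, Ggt1 (0.22), Slc2a2 (0.19) and Cubn (0.12).

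Relatives and partners of the transporters did not pass the test either. Of 22 listed other SLC22, SLCO and SLC47 genes 17 were tested by their brightest probe, and none passed in either direction. Of the 17, 3 had an unadjusted limma p under 0.05, against 11.3% of all probes. The differences were 7 positive and 10 negative, with a median of -0.05. The smallest p in this list belonged to Slc22a4, a carrier of ergothioneine, at 0.12, 0.27 and 0.08 in treated rats, against 0.83, 0.52 and 0.71 in controls. All treated values were below the controls, with a difference of -0.53 (SE 0.11, limma adjusted p = 0.246). Slc22a17, which encodes a receptor for lipocalin 2, came next with -0.46 (SE 0.10, limma adjusted p = 0.281), also without overlap. Of the 17, 3 had all treated values below all controls and 1 had all above, against 11.8% and 7.58% of all probes tested. By the other probe of Slc22a4 the groups overlapped, with a difference of -0.31 (SE 0.15, limma adjusted p = 0.484). Slc22a3 and Slco1c1 stayed near background in all animals.

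Genes coupled to these transporters, such as dicarboxylate carriers, urate carriers and luminal ABC pumps, gave 10 tested of 12 listed, where none passed. Of the 10, 1 had an unadjusted limma p under 0.05, against 11.3% of all probes. The differences were 6 positive and 4 negative, with a median of 0.02. Slc13a3, the basolateral dicarboxylate carrier that supplies the counter-ion of OAT1 and OAT3, stood at 8.45, 8.56 and 8.42 in treated rats, against 8.68, 8.86 and 8.61 in controls. Treated values all lay below control values, with a difference of -0.24 (SE 0.09, limma adjusted p = 0.429). Of the 10, 1 had all treated values below all controls and 0 had all above, against 11.8% and 7.58% of all probes tested. Abcb1b, a P-glycoprotein gene, had the next smallest p by its brightest probe (-0.08, SE 0.09, limma adjusted p = 0.744).

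Regulators and scaffolds gave 8 tested of 9 listed, where none passed. Of the 8, 2 had an unadjusted limma p under 0.05, against 11.3% of all probes. The differences were 5 positive and 3 negative, with a median of 0.05. Nherf1, a scaffold that binds luminal transporters by their PDZ ligands, stood at 2.47, 2.58 and 2.69 in treated rats, against 2.41, 2.22 and 2.30 in controls. It was higher in all treated animals, with a difference of 0.27 (SE 0.09, limma adjusted p = 0.389). Of the 8, 2 had all treated values above all controls and 1 had all below, against 7.58% and 11.8% of all probes tested.

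**Figure D4:**
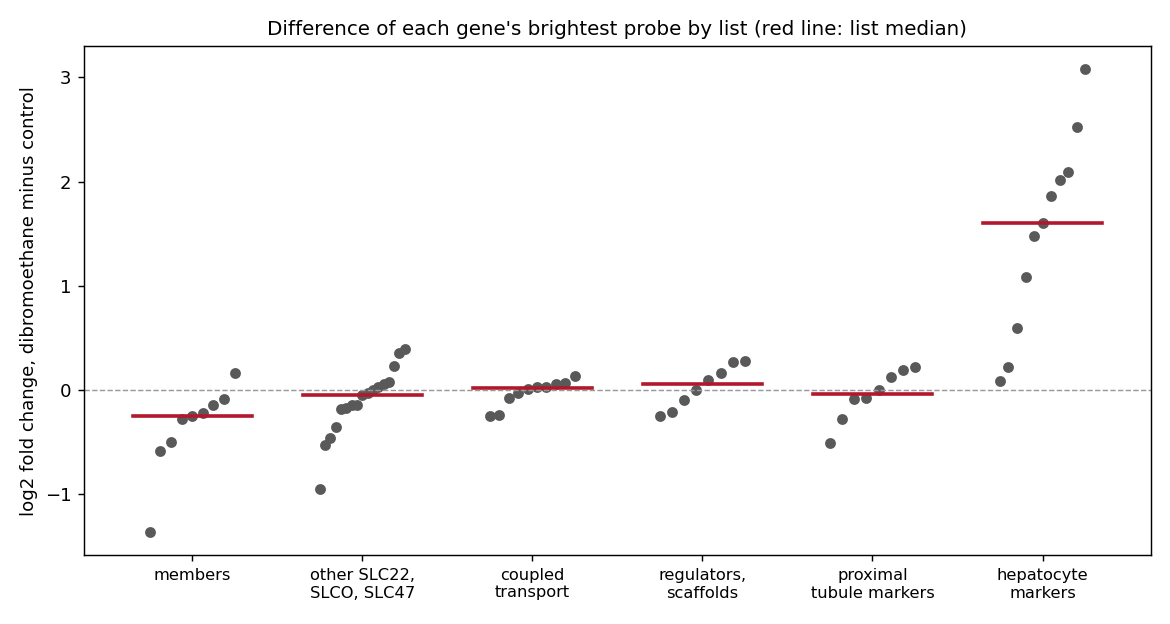
Log2 fold change (vertical axis, dibromoethane minus control) of the brightest probe of each tested gene, by list, with the list median as a red line. The 9 transporters have a median of -0.25, the 3 lists of related genes medians of -0.05, 0.02 and 0.05, proximal tubule markers -0.04 and hepatocyte markers 1.60.

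The genes whose pattern over the 6 arrays was most like that of Slc22a6 were sought among 10988 other genes well above background on all arrays. By Pearson correlation over the 6 arrays these were Lhpp, a phosphatase (r = 0.9987), the ribosomal protein gene Rps10 (r = 0.9957), Dnajc22, of the DnaJ family (r = 0.9946), and Chac2, a glutathione-degrading enzyme (r = 0.9942). These values describe the 6 arrays and were picked as the highest of many. In each of these 4 genes all treated values lay below all control values, which the choice by likeness to Slc22a6 made likely beforehand. The differences were -0.23, -0.19, -0.27 and -0.21.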

How the data were processed

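RNA of each rat was made into Cy3-labelled cRNA for Agilent arrays, per the labels' protocols. The authors deposited scanner output with an intensity for each spot, made with Feature Extraction 10.7.1.1 on design 045522 (grid build rn4) and background-subtracted, per the file headers; the submitters' processing notes name Feature Extraction 10.7. The deposited series table holds the same intensity divided by each array's 75th percentile, on a linear scale without centring of genes (r = 1.0 on the log2 scale on all 6 arrays; column medians 0.102 to 0.112). Of 62976 spots, 1439 control spots and 84 ERCC probes were left out. Accessions without versions named 28206 probes (45.9%) by a RefSeq table of GRCr8; 33247 had no symbol. Flagged outlier spots (1 to 11 per array, 0 on a transporter probe) were set to missing; 0 spots were saturated.

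Each probe was its own feature in lmFit and eBayes of limma 3.58.1 under R 4.3.3. The two-sided test had no covariates, 2.12 prior and 4 residual degrees of freedom, Benjamini-Hochberg adjustment over all probes tested and a threshold of 0.05. Genes of a list count by their probe with the highest mean signal. Named were all 9 members, from each of 3 lists of related genes its passing members (with none, the pair of lowest p), and the 5 genes most like Slc22a6; Slco1a5, Slco1a6, the markers and the genes under other observations were picked with their values in view. Of the genes this rule gives, 2 are not reported here. Members and lists were chosen with earlier results of these data known. The 20 alternatives include normexp with an offset of 50, which used the median spot signal because the files hold no mean signal. Dibromoethane replicate 2 shared slide 1 with control replicates 1 and 2; dibromoethane replicate 1 shared slide 2 with control replicate 3; dibromoethane replicate 3 was alone on slide 3. Fits were tested on simulated data.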

Additional observations from a re-analysis of the deposited data

How the results depend on the processing

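No transporter probe passed the threshold under any of the 20 alternatives, and no gene of the 3 lists of related genes did. Of 293 values of the 15 transporter probes under the alternatives, 281 kept their sign and 12, of 5 probes, turned it. Slc22a7 turned to 0.20 with slide as a fixed block, 0.20 on only slides with both groups and 0.22 without dibromoethane replicate 3, and Slco4c1 to 0.31, 0.31 and 0.17; leaving out 1 array gave -0.48 to 0.22 and -1.06 to 0.17. Slc22a13 turned to -0.03 with slide as a fixed block and on only slides with both groups. Slc22a8 turned to 0.03 with quantile normalization (A_64_P052225), and by A_44_P543342 to -0.02 with median centring, -0.0067 without control replicate 3 and -0.0015 without dibromoethane replicate 3. The Slc22a6 probes kept their sign, between -0.32 and -0.19 (adjusted p from 0.112 to 0.795) and between -0.38 and -0.26; Slco1a1 ranged from -1.88 to -0.82 and the brighter Slc22a2 probe from -0.67 to -0.35. All 220 values of the 11 other genes that the naming rule gives kept their sign.

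Over all probes, 10 passed in limma, 8 raised and 2 lowered. Quantile normalization gave 12 with 4 lowered, median centring 7 with 1 lowered, and slide as a random block 13 with 4 lowered. Normexp gave 6 with 0 lowered, trend and robust 20 with 9 lowered, no filter on dim probes 1, raised, with 0 lowered, and scan day as a fixed block 2, raised, with 0 lowered. Slide as a fixed block and only slides with both groups gave 0, with 4394 and 4405 probes at an unadjusted p under 0.05 in limma; both leave 2 residual degrees of freedom. Leaving out 1 array gave 1 to 13 passed, 1 to 11 raised and 0 to 2 lowered. Beyond these numbers of degrees of freedom, probes or arrays, the cause was not tested.

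The labels give both groups the replicate numbers 1 to 3 and state no pairing. Deviations of same-numbered arrays correlated at -0.20, 0.24 and 0.13, which cannot show whether animals were paired. The arrays of replicate number 2 shared slide 1. The replicate block gave 0 passed, 0 raised and 0 lowered (4455 at an unadjusted p under 0.05 in limma), and 0 transporter probes. Both probes of Slco4c1 and the untested probes of Slc22a13 lie near or below the lowest signals well above background (log2 levels -5.65 to -4.65), which limits what their values can show.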

Other observations

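Abcb1b, a P-glycoprotein gene whose product exports hydrophobic cations at the luminal membrane, gave unlike values by its probes. A_64_P039888 stood at -2.15, -2.14 and -1.97 in treated rats, against -2.84, -3.28 and -3.03 in controls. The groups did not overlap, with a difference of 0.96 (SE 0.13, limma adjusted p = 0.184), 0.91 within slide 1 and 0.88 within slide 2. Treated arrays lay entirely above controls in 7.58% of all probes tested. The brightest probe, A_64_P010925, gave -0.08. The remaining probe, A_44_P141897, had means of -4.73 in treated and -4.74 in control rats, with overlap. That probe was well above background on 2 treated and 2 control arrays and was not tested.

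Slco1b2, which encodes a carrier known from the hepatocyte membrane, was dim on all arrays. Its brighter probe stood at -3.72, -5.33 and -5.19 in treated rats, against -7.28, -5.82 and -5.43 in controls, and was well above background on 2 treated and 0 control arrays. It was highest on dibromoethane replicate 1. The hepatocyte marker Ttr was highest there too, at 3.83, 2.51 and 1.83 in treated rats, against -2.42, 1.02 and 0.34 in controls.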
